A study of Oryza sativa with 12 samples.

Results

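The genes described here encode carriers, channels and exchangers that move potassium, sodium and protons across plant membranes. They were chosen by name: a rice gene was taken when its symbol or a synonym, without a leading Os, was HAK, HKT, NHX, AKT, KAT, SKOR, TPK, CAX, KEA, CHX, SOS1, VHA, AVP or OVP, alone or with a number or letters. The rule found 32 of the 17905 genes that the array annotation pairs with a probe set of their own. They were 22 HAK transporters, the sodium transporter HKT1;5, the potassium channel AKT1, 4 TPK channels (TPK2, TPK3, TPKA and TPKB) and 4 CAX exchangers (CAX1a, CAX1b, CAX2 and CAX3). No gene so named was matched for NHX, KAT, SKOR, KEA, CHX, SOS1, VHA, AVP or OVP, and 12 further genes of the HAK, HKT, TPK and CAX families had no probe set assigned to them. These genes are not analysed here.

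Rice seedlings (Oryza sativa) of the genotypes Jijing88 and K83 were grown in hydroponic culture for 7 days. They were then moved either to fresh medium (control) or to medium with 50 mM alkali salts, and shoots were collected 24 h later. Each of the 4 groups (Jijing88 control, Jijing88 alkali, K83 control, K83 alkali) had 3 Affymetrix arrays labelled as biological replicates, each from a pool of 10 shoots. The labels give neither the salts nor the pH of the alkali medium, no group received a neutral salt, and the origin of K83 and its relation to Jijing88 are not stated in them, so salt, sodium and pH cannot be told apart here. Because whole shoots were pooled, fewer cells of a type and less RNA per cell cannot be told apart either. Values are log2 signals as the authors deposited them, so that a difference of 1 is a doubling of signal. All 12 arrays had medians between 5.12 and 5.18, and arrays of a group correlated at 0.993 to 0.997 over all probe sets. The shoot markers rbcS, rca, CAB2R and LHCP, which serve photosynthesis, were bright in all groups, while the probe set of RBCS1 lay below the array medians. The shoot markers also moved with the groups: CAB2R and LHCP rose in Jijing88 under alkali (0.49 and 0.48) and were lower in K83 under alkali (-0.59 and -0.47), where rca was higher (0.53). Both also passed the test for a difference between the alkali effects (-0.63, adjusted p = 0.0476, and -0.65, adjusted p = 0.0269). The mean log2 signal of the 5 shoot markers, 11.6 to 11.8 on all arrays, did not overlap between the groups in any of the 4 comparisons of a pair of groups (exact permutation p = 0.1 each, the smallest possible). Some arrays stood apart in control signals. In the Jijing88 alkali group, replicate 1 had a 25S ribosomal RNA signal of 9.68 and replicate 3 one of 9.44, against at most 8.53 in the other arrays. The mean of the seed markers was 5.51 in Jijing88 control replicate 3 and at most 5.16 elsewhere, and the difference between the 3' and 5' GAPDH probe sets ran from 0.04 to 0.70 within Jijing88 alkali. The part of these shifts in the results was not tested beyond leaving out each array. Jijing88 control replicate 3 was the highest of its 3 arrays for 21 of the 32 genes, by a median of 0.15 over the mean of the other arrays.

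As background, potassium is the main cation of plant cells, and sodium competes with it for entry. HAK proteins carry potassium into cells against its gradient, often together with protons. AKT1 is an inward potassium channel. TPK channels release potassium from vacuoles. CAX proteins exchange protons for calcium at the vacuole, and HKT1;5 takes sodium out of the xylem sap before it reaches the leaf blade. Calcium sensors of the CBL family with CIPK protein kinases switch several of these proteins on, and in rice CIPK23 acts on AKT1.

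For 28 of the 32 transport genes, all 4 group means lay above the array medians, and for HAK4, HAK20, HAK26 and HKT1;5 all 4 lay below. The medians are over all probe sets, and the share of all genes above them was not counted. The spread within a group, as an SD over 3 arrays, ran from 0.01 to 0.36 with a median of 0.14. The range of a gene over all 12 arrays ran from 0.29 for HAK15 to 1.79 for HAK1, with a median of 0.65. Levels of different genes are not ranked against each other, because probe sets differ in their response.

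A gene is called changed below where the limma fit over all 57258 probe sets gave a Benjamini-Hochberg adjusted p under 0.05 (two-sided). In Jijing88, alkali raised HAK10, CAX1b and HAK23 and lowered CAX1a, HAK16 and TPKB. Those 6 calls are 18.8% of the 32 genes, against 15.6% of all genes called in that comparison (8.22% higher and 7.35% lower). In K83, alkali raised HAK10, AKT1 and CAX1b and lowered HAK7, TPKB and TPK2. Those 6 calls are again 18.8% of the genes, against 12.9% of all genes (5.04% higher and 7.82% lower). The shares lie near the background and set the transport genes apart in neither genotype. Their median log2 difference was 0.01 in Jijing88 and 0.02 in K83, beside medians of -0.01 and -0.04 over all genes. HAK10, CAX1b and TPKB passed the test in both genotypes. The K83 count moved with single arrays, as did the calls over all probe sets, which numbered 3700 in the full fit. Leaving out the K83 control array 2 or 3, or the K83 alkali array 2, left 3 transport calls, where all probe sets gave 1721, 2658 and 1887 calls. Leaving out the K83 alkali array 3 left 2 transport calls and 1831 over all probe sets.

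**Figure D1:**
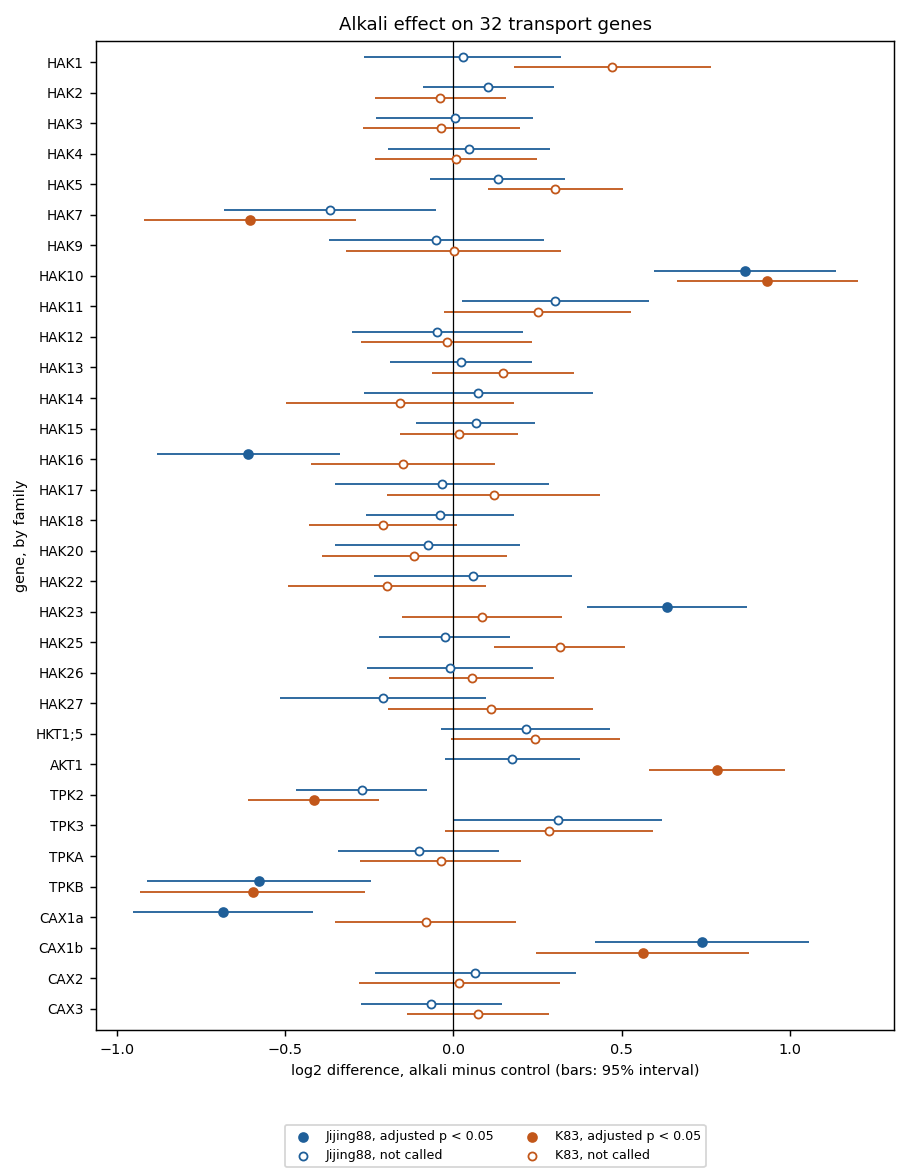
Log2 difference between alkali and control (x axis) for each of the 32 transport genes (y axis, by family) in Jijing88 (blue) and K83 (orange). Bars are 95% intervals from the limma fit with 3 arrays per group, and filled points had an adjusted p under 0.05. HAK10 lies to the right of 0 in both genotypes, at 0.87 and 0.93, and most intervals of the other genes include 0.

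HAK10, a potassium transporter that has been placed in the vacuolar membrane, had the largest alkali effect of the 32 genes in both genotypes. Its log2 signal was 9.92, 9.72 and 9.45 in the Jijing88 control arrays and 10.50, 10.72 and 10.47 under alkali. In K83 it was 9.24, 9.01 and 9.26 in control and 9.96, 10.16 and 10.19 under alkali. Every alkali array lay above every control array of its genotype. The signal rose 1.82-fold in Jijing88 (log2 difference 0.87, SE 0.12, adjusted p = 0.000862) and 1.91-fold in K83 (0.93, SE 0.12, adjusted p = 0.000765). The difference between these effects was 0.07, with a 95% interval of -0.31 to 0.45. A second probe set of HAK10 rose by a similar amount, 0.94 and 0.89 on the log2 scale. The names of both sets differ only in the ending, so they may not be independent readings. HAK10 was also lower in K83 than in Jijing88, by a log2 difference of -0.53 in control medium (adjusted p = 0.0139) and -0.46 under alkali (adjusted p = 0.0247). These genotype calls were lost without 1 of several arrays. In control medium the adjusted p reached 0.0692 at most, without Jijing88 control replicate 1 or K83 control replicate 2. Under alkali it reached 0.105 at most, without Jijing88 alkali replicate 2 or K83 alkali replicate 1 or 2.

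AKT1, the potassium channel, differed most between the genotypes in control medium after HAK1. It gave 8.97, 8.91 and 9.20 in the Jijing88 control arrays and 9.32, 9.10 and 9.19 in the Jijing88 alkali arrays, and these groups overlapped. In K83 it gave 7.90, 7.93 and 7.86 in control and 8.69, 8.60 and 8.75 under alkali, with no overlap. All 6 K83 arrays thus lay below all 6 Jijing88 arrays, and the gap was narrower under alkali. The K83 signal rose 1.72-fold under alkali (0.78, SE 0.09, adjusted p = 0.000348), while the Jijing88 difference of 0.18 was not called (95% interval -0.03 to 0.38). K83 was 2.19-fold below Jijing88 in control medium (-1.13, SE 0.09, adjusted p = 3.5e-06) and 1.44-fold below it under alkali (-0.52, SE 0.09, adjusted p = 0.00184). The 2 alkali effects differed by 0.61 (95% interval 0.32 to 0.89), which missed the threshold at an adjusted p of 0.0579. Across the 19 alternatives tried for this difference the adjusted p ran from 0.0313 to 0.144. It passed under quantile normalization, without dim probe sets, with a trended robust prior and with array weights. The only probe set of AKT1 is of the kind marked x_at, whose probes can match other transcripts too.

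No transport gene passed the test for a difference between the alkali effects of the genotypes, where 1.03% of all genes did. At an unadjusted p under 0.05 there were 6 such genes. The share of all genes at that unadjusted threshold was not counted, so the 6 cannot be set against a background. After AKT1, the smallest adjusted p values were 0.137 for HAK23 and 0.146 for CAX1a. Both of these were called in Jijing88 and not in K83, and a call in 1 genotype alone does not show that the effects differ.

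HAK23, a HAK family member read from a shared probe set (s_at), gave 8.35, 8.49 and 8.73 in the Jijing88 control arrays and 9.36, 8.97 and 9.15 under alkali. The K83 arrays lay between 8.43 and 8.58 in both media. The Jijing88 signal rose 1.55-fold (0.64, SE 0.11, adjusted p = 0.00306), and the K83 difference was 0.08 (95% interval -0.15 to 0.32). Under alkali K83 was accordingly 1.51-fold lower than Jijing88 (-0.60, adjusted p = 0.00247), with no overlap of the arrays. In control medium the difference was -0.05 (95% interval -0.28 to 0.19). The difference between the alkali effects was -0.55, with a 95% interval of -0.89 to -0.21 before adjustment.

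CAX1a, a vacuolar calcium and proton exchanger, moved the other way in Jijing88. It gave 8.65, 8.74 and 9.08 in the Jijing88 control arrays and 8.19, 7.92 and 8.30 under alkali. In K83 it gave 9.11, 9.19 and 9.16 in control and 8.93, 9.16 and 9.11 under alkali. The Jijing88 alkali arrays were thus the lowest 3 of the 12. The signal fell 1.61-fold in Jijing88 (-0.68, SE 0.12, adjusted p = 0.00399), and the K83 difference was -0.08 (95% interval -0.35 to 0.19). Under alkali CAX1a was 1.90-fold higher in K83 (0.93, SE 0.12, adjusted p = 0.000224). In control medium K83 was 0.33 higher with an adjusted p of 0.119, and that difference was called with array weights and without Jijing88 control replicate 3 (lowest adjusted p 0.0282).

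CAX1b, another exchanger of this family, rose in both genotypes. Its arrays lay at 6.13, 6.24 and 6.01 in Jijing88 control and 6.66, 7.07 and 6.87 in Jijing88 alkali. In K83 they lay at 6.27, 5.98 and 6.41 in control and 6.51, 7.01 and 6.82 under alkali. Alkali and control arrays did not overlap in either genotype. The rise was 1.67-fold in Jijing88 (0.74, SE 0.15, adjusted p = 0.00693) and 1.48-fold in K83 (0.56, SE 0.15, adjusted p = 0.0383). The K83 call was lost in a fit on the K83 arrays alone and without Jijing88 control replicate 1, Jijing88 alkali replicate 3, K83 control replicate 1 or 2, or K83 alkali replicate 2 or 3, at an adjusted p of 0.162 at most. CAX1a and CAX1b, which carry similar names, therefore had calls of opposite direction in Jijing88. CAX2 and CAX3 were called in none of the comparisons.

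Among the vacuolar TPK channels, TPKB was the one called under alkali in both genotypes. Its arrays gave 6.15, 6.61 and 6.77 in Jijing88 control and 6.16, 5.91 and 5.74 in Jijing88 alkali, where the highest alkali array lay just above the lowest control array. In K83 they gave 6.63, 6.70 and 6.95 in control and 6.12, 6.09 and 6.28 under alkali, with no overlap. TPKB fell 1.49-fold in Jijing88 (-0.58, SE 0.15, adjusted p = 0.0348) and 1.51-fold in K83 (-0.60, SE 0.15, adjusted p = 0.0369). Both calls are fragile. The Jijing88 call was lost in a fit on the Jijing88 arrays alone and without Jijing88 control replicate 2 or 3 or Jijing88 alkali replicate 2 or 3 (adjusted p up to 0.134). The K83 call was lost without any 1 of the 6 K83 arrays (adjusted p up to 0.125).

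TPK2 gave 7.54, 7.85 and 7.76 in K83 control and 7.38, 7.21 and 7.32 under alkali. It fell 1.33-fold (-0.42, SE 0.09, adjusted p = 0.0158), and the call was lost without K83 control replicate 2 or 3 or K83 alkali replicate 2 or 3 (adjusted p up to 0.0772). In Jijing88 its difference was -0.27 with an adjusted p of 0.0891, and the arrays of the groups did not overlap there either. TPK3 was lower in K83 in both media. Its alkali effect was 0.31 in Jijing88 (adjusted p = 0.239) and 0.28 in K83 (adjusted p = 0.296); without Jijing88 control replicate 3 the Jijing88 value was 0.48 and passed the test (adjusted p = 0.0251). It gave 7.87, 7.47 and 8.19 in Jijing88 control, 8.29, 8.10 and 8.07 in Jijing88 alkali, 7.42, 7.30 and 7.29 in K83 control and 7.51, 7.68 and 7.66 in K83 alkali. Every K83 array lay below every Jijing88 array of the same medium. The log2 differences were -0.51 in control (adjusted p = 0.034) and -0.54 under alkali (adjusted p = 0.0223). The control call was lost with array weights, with only the compared arrays, and without Jijing88 control replicate 1 or 3 or any 1 of the 3 K83 control arrays (adjusted p up to 0.12). The alkali call was lost without Jijing88 alkali replicate 1 or K83 alkali replicate 1 or 3 (adjusted p up to 0.089).

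**Figure D2:**
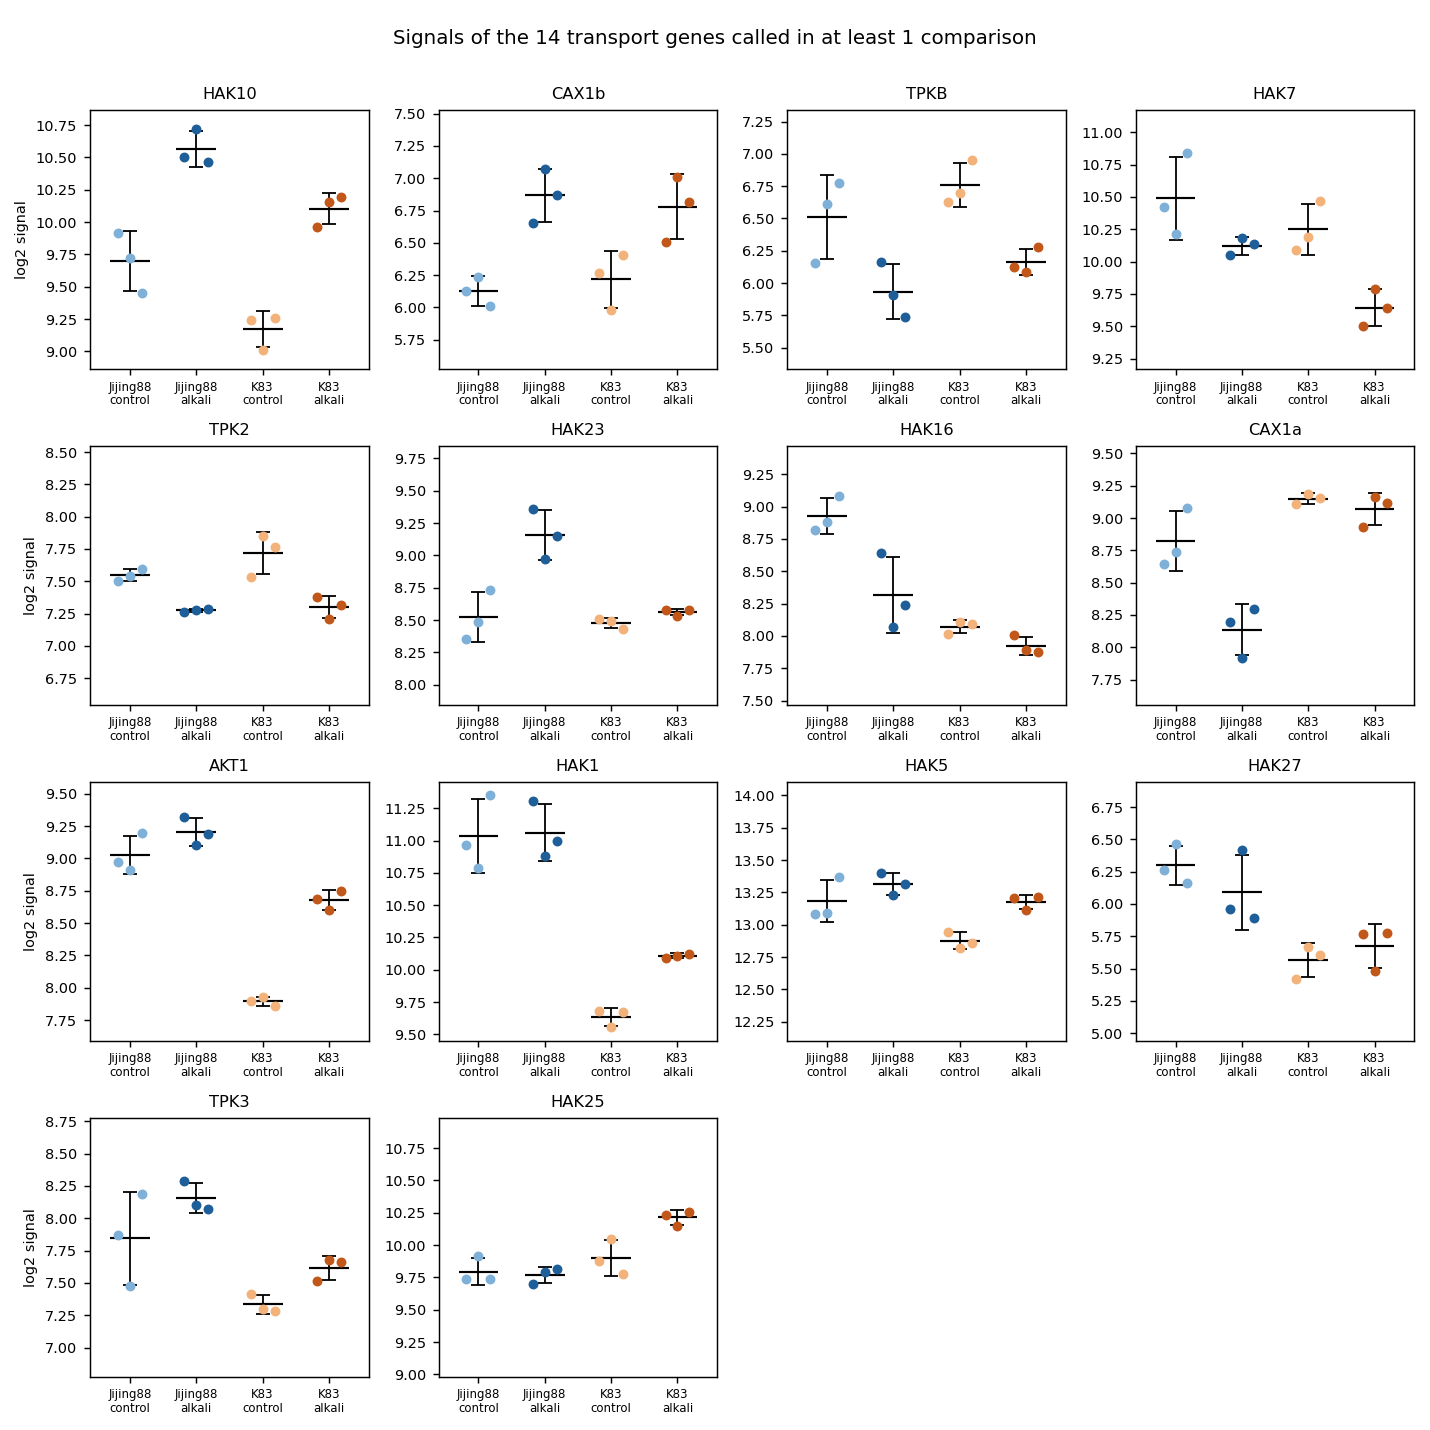
Log2 signal (y axis) of the 14 transport genes called in at least 1 comparison, in the 4 groups (x axis). Points are the 3 arrays of a group, horizontal bars their mean and vertical bars the SD; each panel has its own scale. AKT1 and HAK1 lie lower in all 6 K83 arrays than in all 6 Jijing88 arrays, and HAK10 lies higher in the alkali arrays of both genotypes.

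In control medium, 7 transport genes were lower in K83 than in Jijing88 and none was higher. They were HAK1, AKT1, HAK16, HAK27, HAK10, TPK3 and HAK5. The 7 calls are 21.9% of the 32 genes, against 20.9% of all genes, so the number of calls was that of the background. Over all genes 11.3% were called higher in K83 and 9.58% lower, and the 7 transport calls were all lower. The median difference of the 32 genes was -0.06, beside 0.04 over all genes, and 18 of the 32 differences were negative. The count was 4 without Jijing88 control replicate 1 and 4 without K83 control replicate 2, all of them lower in K83, while the calls over all probe sets fell from 6658 to 4936 and 4551. Without Jijing88 control replicate 3, which was high for many members, 5 genes were called lower and 1 (CAX1a) higher.

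Under alkali, CAX1a and HAK25 were higher in K83, and HAK1, HAK23, TPK3, AKT1, HAK7 and HAK10 were lower. These 8 calls are 25% of the genes, against 24.7% of all genes (11.5% higher and 13.2% lower), again near the background. Of the 32 differences 25 were negative, with a median of -0.09 beside -0.00360 over all genes. The count was 5 without K83 alkali replicate 1, where the calls over all probe sets fell from 8188 to 6204. HAK1, AKT1, HAK10 and TPK3 were lower in K83 in both media. Because the alkali effects and the genotype differences use the same arrays, these comparisons are not independent of each other.

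**Figure D3:**
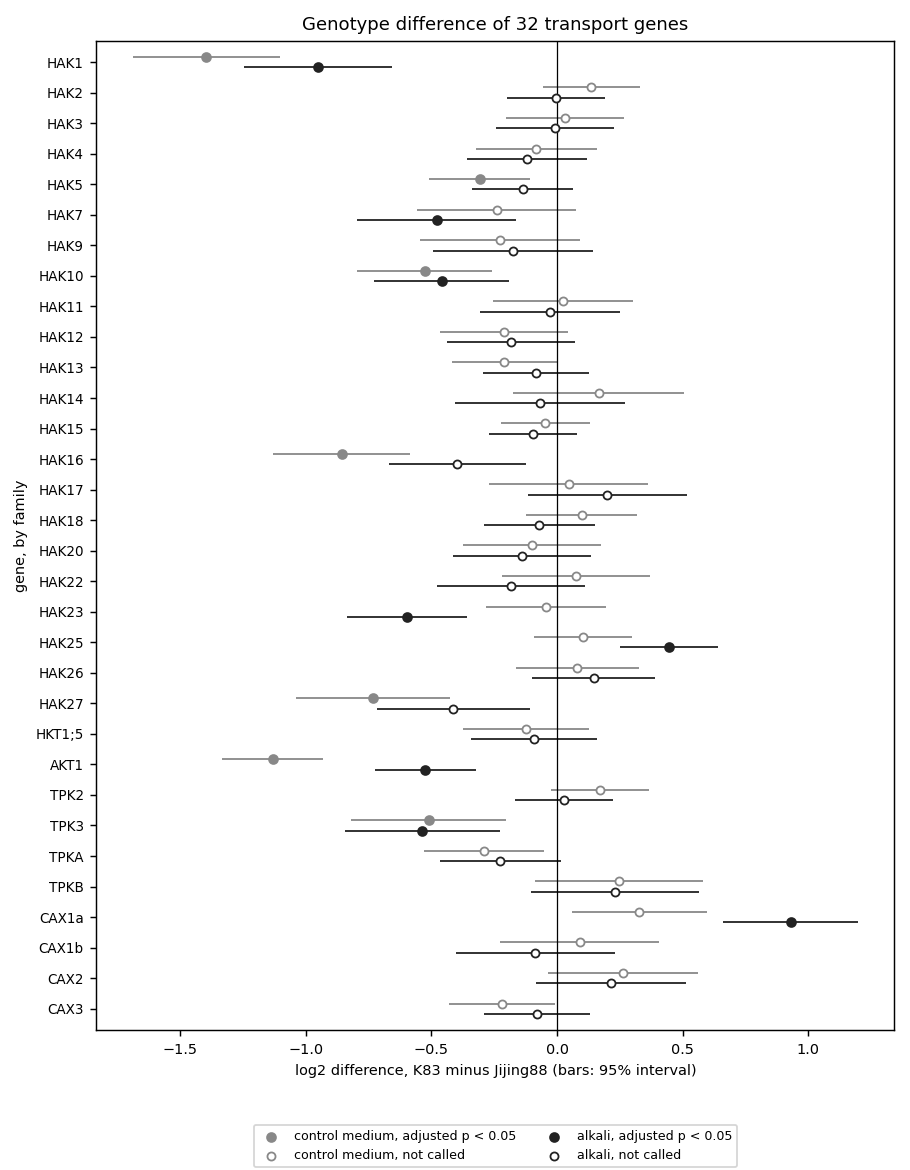
Log2 difference between K83 and Jijing88 (x axis) for each of the 32 transport genes (y axis, by family) in control medium (grey) and under alkali (black). Bars are 95% intervals from the limma fit with 3 arrays per group, and filled points had an adjusted p under 0.05. HAK1 and AKT1 lie farthest to the left, at -1.40 and -1.13 in control medium, and CAX1a farthest to the right, at 0.93 under alkali.

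The largest genotype difference among the transport genes was that of HAK1, a high-affinity potassium transporter of rice that is known from potassium uptake by roots. It gave 10.96, 10.79 and 11.35 in the Jijing88 control arrays and 11.31, 10.88 and 10.99 under alkali. In K83 it gave 9.68, 9.56 and 9.67 in control and 10.09, 10.11 and 10.13 under alkali. As for AKT1, the 6 K83 arrays lay below the 6 Jijing88 arrays. K83 was 2.63-fold lower in control medium (-1.40, SE 0.14, adjusted p = 1.63e-05) and 1.93-fold lower under alkali (-0.95, SE 0.14, adjusted p = 0.000374). The set used is of the kind marked x_at, and a second probe set gave -1.43 and -1.09. The alkali effect was 0.03 in Jijing88 (95% interval -0.27 to 0.32). In K83 it was 0.47, with no overlap of the arrays and an adjusted p of 0.0578. That value passed the threshold under 9 of the 20 alternatives, among them quantile normalization, array weights and a fit on the K83 arrays alone, and ranged from 0.00832 to 0.182.

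HAK5, which serves potassium uptake and its transfer from root to shoot in rice, had 2 probe sets that gave different sizes. The brighter set gave 13.08, 13.09 and 13.37 in Jijing88 control and 12.95, 12.82 and 12.86 in K83 control. It gave 13.40, 13.23 and 13.31 in Jijing88 alkali and 13.21, 13.11 and 13.21 in K83 alkali. The K83 difference was -0.31 in control medium (adjusted p = 0.0483), a call that was lost under 16 of 20 alternatives, including the removal of any 1 of the 12 arrays (adjusted p up to 0.167), and -0.14 under alkali (adjusted p = 0.409). The dimmer set gave 6.99, 6.90 and 7.34 in Jijing88 control, 7.55, 6.87 and 6.95 in Jijing88 alkali, 5.96, 6.18 and 6.23 in K83 control and 6.21, 6.31 and 6.24 in K83 alkali. There the K83 differences were -0.95 (adjusted p = 0.00158) and -0.87 (adjusted p = 0.00255), so that both sets agreed in sign and not in size. The alkali effect of the brighter set in K83 was 0.30 (adjusted p = 0.0741), with no overlap of the arrays, and passed under 5 of 20 alternatives, among them the fit without Jijing88 control replicate 3 (lowest adjusted p 0.0191).

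HAK16 and HAK27 lie near each other on the same chromosome in RefSeq's gene table for the Japonica assembly ASM3414082v1. Whether another gene lies between them was not checked. In rice HAK16 has been tied to potassium uptake under salt stress. HAK16 gave 8.82, 8.88 and 9.08 in Jijing88 control, 8.64, 8.07 and 8.24 in Jijing88 alkali, 8.01, 8.11 and 8.09 in K83 control and 8.00, 7.89 and 7.87 in K83 alkali. It was highest in the Jijing88 control arrays, above all others. It fell 1.53-fold under alkali in Jijing88 (-0.61, SE 0.13, adjusted p = 0.00898), a call lost in a fit on the Jijing88 arrays alone (adjusted p = 0.0569). The K83 difference was -0.15 (adjusted p = 0.58), and the difference between the effects was 0.46 (adjusted p = 0.27). K83 was 1.81-fold lower in control medium (-0.86, SE 0.13, adjusted p = 0.000528). Under alkali the difference was -0.40 (adjusted p = 0.054), which passed under 5 of 20 alternatives, among them the fits without Jijing88 control replicate 3 and without Jijing88 alkali replicate 2 (lowest adjusted p 0.0149).

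HAK27 gave 6.27, 6.47 and 6.17 in Jijing88 control, 5.96, 6.42 and 5.89 in Jijing88 alkali, 5.42, 5.67 and 5.61 in K83 control and 5.77, 5.48 and 5.78 in K83 alkali. The K83 arrays lay below the Jijing88 arrays of the same medium, and the K83 control values lie close to the array medians. The difference was -0.73 in control (SE 0.14, adjusted p = 0.00373) and -0.41 under alkali (adjusted p = 0.0733). The alkali value passed the threshold without Jijing88 alkali replicate 3 (adjusted p = 0.0467). Neither genotype showed a call under alkali against its control.

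HAK25 was the HAK gene called higher in K83. It gave 9.70, 9.80 and 9.82 in the Jijing88 alkali arrays and 10.24, 10.15 and 10.26 in the K83 alkali arrays. The control arrays, at 9.74, 9.91 and 9.74 in Jijing88 and 9.88, 10.05 and 9.78 in K83, overlapped. K83 was 1.36-fold higher under alkali (0.45, SE 0.09, adjusted p = 0.00435), and the control difference was 0.10 (adjusted p = 0.55). The alkali effect in K83 was 0.32, with an adjusted p of 0.0565, and passed under 5 of 20 alternatives, among them the fit without K83 control replicate 2 (lowest adjusted p 0.0253).

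HAK7, a potassium transporter of the same family, gave 10.42, 10.21 and 10.84 in Jijing88 control, 10.05, 10.18 and 10.14 in Jijing88 alkali, 10.09, 10.19 and 10.47 in K83 control and 9.50, 9.79 and 9.64 in K83 alkali. The K83 alkali arrays were the lowest 3. HAK7 fell 1.52-fold under alkali in K83 (-0.61, SE 0.15, adjusted p = 0.0264). That call was lost without K83 control replicate 2 or 3 or K83 alkali replicate 1 or 3 (adjusted p up to 0.102). In Jijing88 the difference was -0.37 (adjusted p = 0.165), with no overlap of the arrays. The difference between the effects was -0.24 (adjusted p = 0.655). The second probe set of HAK7 gave -0.59 in K83 (adjusted p = 0.0381) and -0.49 in Jijing88 (adjusted p = 0.0679). Under alkali K83 was lower than Jijing88 by a log2 difference of -0.48 (adjusted p = 0.0437). That call was lost under 10 of 20 alternatives, including the removal of Jijing88 control replicate 1, K83 control replicate 2 or any 1 of the 6 alkali arrays (adjusted p up to 0.155). The second probe set gave -0.39 for this comparison and was not called (adjusted p = 0.122).

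The remaining 18 genes were called in no comparison. They were HAK2, HAK3, HAK4, HAK9, HAK11, HAK12, HAK13, HAK14, HAK15, HAK17, HAK18, HAK20, HAK22, HAK26, HKT1;5, TPKA, CAX2 and CAX3. Their alkali effects ran from -0.10 (TPKA) to 0.30 (HAK11) in Jijing88 and from -0.21 (HAK18) to 0.25 (HAK11) in K83. Their genotype differences ran from -0.29 (TPKA) to 0.26 (CAX2) in control medium and from -0.23 (TPKA) to 0.21 (CAX2) under alkali. Across these 18 genes the 95% intervals reached from -0.37 to 0.58 for the Jijing88 alkali effect and from -0.50 to 0.53 for the K83 effect, so changes beyond these bounds lie outside the intervals and smaller ones were not resolved. The dimmer probe sets of HAK17 and HAK22 passed the test under alkali between the genotypes, at 0.40 (adjusted p = 0.0416) and -0.45 (adjusted p = 0.0285), where the brighter sets gave 0.20 and -0.18.

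HKT1;5, the sodium transporter known for its part in salt tolerance of rice, was dim. It gave 4.45, 4.74 and 4.35 in Jijing88 control, 4.60, 4.71 and 4.88 in Jijing88 alkali, 4.52, 4.37 and 4.29 in K83 control and 4.55, 4.76 and 4.60 in K83 alkali. These values lie below the array medians in all groups. The alkali effect was 0.21 in Jijing88 (adjusted p = 0.332) and 0.24 in K83 (adjusted p = 0.265). At this signal a change in the RNA may not show.

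Several of the genes lower in K83 are known from roots, so root markers were read beside them. Of 3 such markers measured, the nitrate transporter gene NRT2.3 was lower in K83 by -0.998 in control medium (adjusted p = 0.0122) and -0.87 under alkali (adjusted p = 0.0221). The only probe set of NRT2.3 is of the kind marked x_at, whose probes can match other transcripts too. The silicon channel gene Lsi1 differed by -0.14 in control medium (adjusted p = 0.544) and by -0.59 under alkali (adjusted p = 0.00525). The silicon exporter gene Lsi2 lay below the array medians in all groups and was not called, with 5.47 in K83 control replicate 1 and at most 4.04 in the other arrays. The mean log2 signal of the 3 markers ran from 6.20 to 6.31 in Jijing88 control, 6.16 to 6.56 in Jijing88 alkali, 5.77 to 6.49 in K83 control and 5.80 to 5.86 in K83 alkali. In an exact permutation test of that mean, K83 was not separated from Jijing88 in control medium (p = 0.5), and under alkali the groups did not overlap (p = 0.1, the smallest value that 3 against 3 arrays allow). The part of root tissue in the HAK1, HAK5 and AKT1 differences was not tested.

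**Figure D4:**
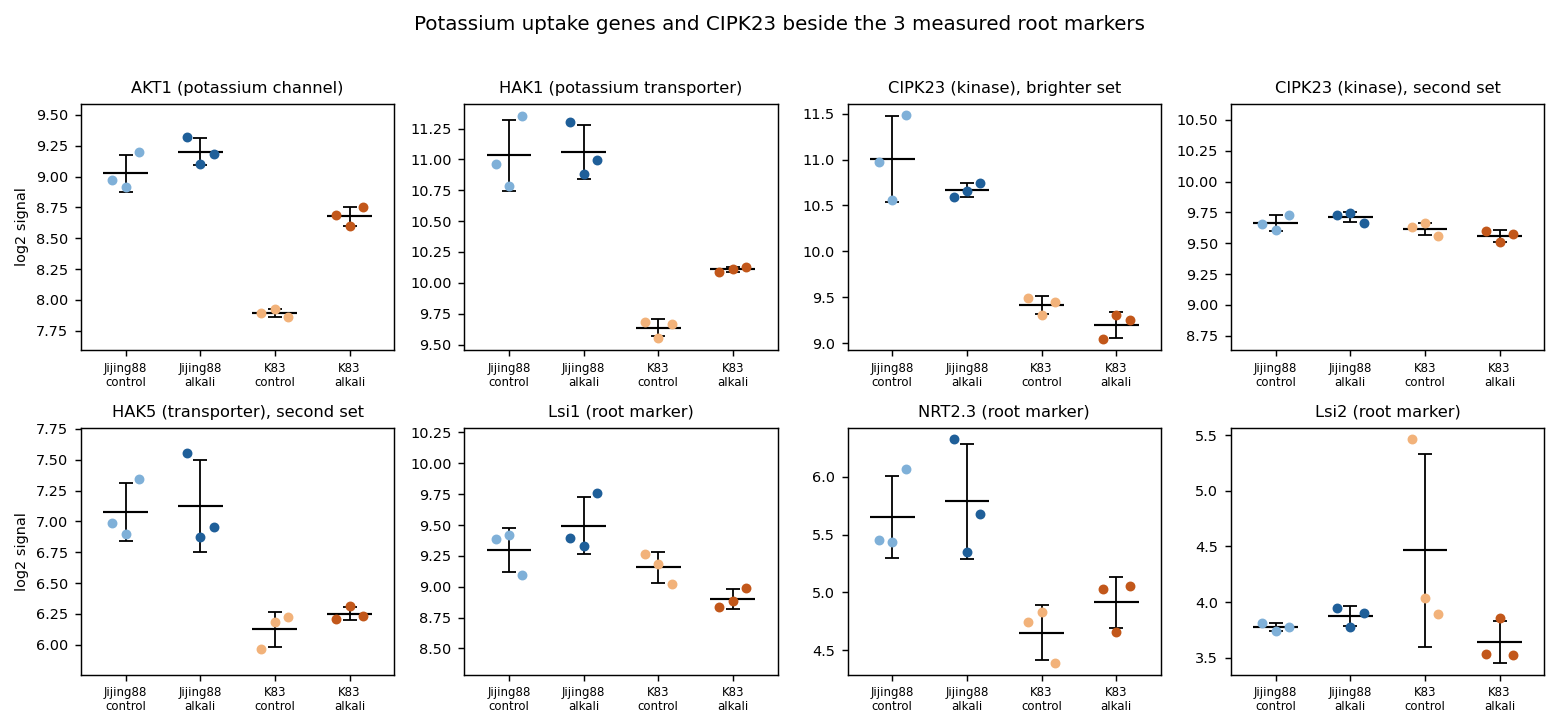
Log2 signal (y axis) in the 4 groups (x axis) of AKT1, HAK1, both probe sets of the kinase gene CIPK23, the dimmer probe set of HAK5 and the root markers Lsi1, NRT2.3 and Lsi2. Points are the 3 arrays of a group, horizontal bars the mean and vertical bars the SD; each panel has its own scale. The brighter CIPK23 set is lower in K83 and the second set is level, and NRT2.3 is the root marker that is lower in K83 in both media.

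The CBL calcium sensors and CIPK kinases, which regulate these transporters, were read as a neighbouring list. Of 31 such genes measured, 3 rose and 7 fell under alkali in Jijing88, which is 32.3% against 15.6% of all genes. In K83 3 rose and 6 fell, 29.0% against 12.9%. Their medians were -0.04 and -0.12, beside -0.01 and -0.04 over all genes. None was called for a difference between the effects, where 6 had an unadjusted p under 0.05, with no count over all genes at that threshold. CIPK10 rose by 1.70 in Jijing88 (adjusted p = 3.77e-05) and by 1.29 in K83 (adjusted p = 0.00039). Its 3 further probe sets also passed in both genotypes. CIPK14 rose by 2.50 in Jijing88 (adjusted p = 0.000108) and CIPK29 rose by 1.28 in K83 (adjusted p = 0.000366). In the other genotype neither was called, and both differences were positive too. CIPK14 in K83 ran from 0.50 to 1.09 across 20 alternatives, of which 2 gave a call, and CIPK29 in Jijing88 from 0.32 to 0.47. CIPK25 fell by 0.95 in Jijing88 (adjusted p = 0.00048) and by 0.72 in K83 (adjusted p = 0.00446). CIPK1 fell by 0.45 in Jijing88 (adjusted p = 0.0196) and by 1.12 in K83 (adjusted p = 7.19e-05). The smaller CIPK1 fall was lost in a fit on the Jijing88 arrays alone and without Jijing88 control replicate 3 or Jijing88 alkali replicate 1 or 3 (adjusted p up to 0.0884). These genes encode protein kinases, and none of them is a transporter.

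Of the salt overly sensitive pathway, which drives sodium out of cells, the calcium sensor gene CBL4 (SOS3) fell under alkali. The log2 differences were -1.23 in Jijing88 (adjusted p = 0.00335) and -0.92 in K83 (adjusted p = 0.0238). The K83 call was lost without K83 control replicate 1 or 2 or any 1 of the K83 alkali arrays (adjusted p up to 0.0996). Its partner kinase gene CIPK24 (SOS2) differed by 0.16 (adjusted p = 0.393) and 0.12 (adjusted p = 0.549). Between the genotypes CIPK24 was called lower in K83 under alkali, at -0.34 to -0.28 across 20 alternatives. That call was lost under 9 of them (adjusted p up to 0.153). In control medium CIPK24 was not called, and 2 alternatives gave a call. The sensor and the kinase gene thus did not share a call, and SOS1, the exporter itself, is not analysed here.

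Between the genotypes, 4 CBL and CIPK genes were higher and 5 lower in K83 in control medium (29.0% against 20.9% of all genes). Under alkali 2 were higher and 7 lower (29.0% against 24.7%). The control count was 5 without Jijing88 control replicate 1 and 5 without K83 control replicate 3, and the alkali count was 5 without K83 alkali replicate 2. Calls over all probe sets in these fits fell from 6658 to 4936 and 4885, and from 8188 to 5998. CIPK10 was lower in K83 by -1.35 in control (adjusted p = 6.67e-05) and -1.77 under alkali (adjusted p = 6.35e-06), and its 3 further probe sets passed as well. CIPK14 was higher in K83 control by 1.58 (adjusted p = 0.00159). CIPK3 was higher in K83 under alkali by 0.74 (adjusted p = 0.000289), and its second probe set gave 0.27 (adjusted p = 0.215). In control medium CIPK3 was higher by 0.50 (adjusted p = 0.00602), and the second set gave 0.20 (adjusted p = 0.41). That control call was lost with the mean of the probe sets (adjusted p = 0.0501).

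CIPK23, the kinase that activates AKT1, is a case where the probe sets disagreed. The brighter set gave 10.97, 10.56 and 11.49 in Jijing88 control, 10.59, 10.66 and 10.75 in Jijing88 alkali, 9.49, 9.31 and 9.45 in K83 control and 9.04, 9.31 and 9.25 in K83 alkali. It was lower in K83 by -1.59 (adjusted p = 4.47e-05) and -1.46 (adjusted p = 8.55e-05). The second set gave 9.66, 9.60 and 9.73 in Jijing88 control, 9.73, 9.74 and 9.66 in Jijing88 alkali, 9.63, 9.66 and 9.56 in K83 control and 9.60, 9.51 and 9.57 in K83 alkali, with differences of -0.05 (adjusted p = 0.774) and -0.15 (adjusted p = 0.214). Other kinase genes of this list disagreed as well. The used set of CIPK2, counted above as lower in K83 control (-0.57, adjusted p = 0.0102), stood beside a dimmer set that was called higher (0.64, adjusted p = 0.0036) and another called lower (-0.60, adjusted p = 0.0275). CIPK7, not called on its used set (0.10 in control and 0.01 under alkali), was lower in K83 on its other set (-0.79, adjusted p = 0.0187, and -1.76, adjusted p = 5.08e-05). That set also rose by 1.01 under alkali in Jijing88 (adjusted p = 0.00614), where the used set gave 0.18. The counts of this list therefore depend on the probe set read. A lower level of the CIPK23 gene in K83 is therefore not established by these arrays. Less RNA in K83 and a sequence difference under the probes cannot be told apart here. For HAK1 and HAK10 both probe sets gave genotype differences of similar size, and AKT1 has only the 1 set. The probe sequences were not read, so whether the sets of a gene share probes or a sequence difference was not tested.

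Other ion transport lists were short. Of 5 calcium ATPase genes, which pump calcium out of the cytosol, ACA8 rose under alkali in Jijing88 by 0.35 (adjusted p = 0.0212) and none was called in K83. ACA5 was higher in K83 in control medium by 0.45 (adjusted p = 0.00686) and under alkali by 0.53 (adjusted p = 0.00182). Of a pair of other cation channel genes, the vacuolar channel gene TPC1 was higher in K83 control by 0.59 (adjusted p = 0.0324). The glutamate receptor channel gene GLR3.1 was lower in K83 under alkali by -0.48 (adjusted p = 0.00197). The chloride cotransporter gene CCC1 was called in no comparison. ACA8, TPC1, GLR3.1 and CCC1 each had another probe set, which was not read, so whether it gives the same result was not tested. No plasma membrane proton pump gene was matched by name, and that list is not analysed here.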

How the data were processed

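RNA from pooled shoots was hybridised to Affymetrix rice arrays. The authors deposited 1 table of log2 signals for 57381 probe sets on 12 arrays. The submitters' processing notes name RMA (background correction, normalization and summary of probes) and limma, and the log2 scale was read from the range of the values. A genome build for the array is not given in the sources used here. After 123 control probe sets had been left out, 57258 were tested. Genes were named through GEO's platform annotation and RefSeq's gene table: 22436 probe sets had 1 gene, 95 had several and 34727 had none, and no gene was named from the latter kinds. Where a gene had several probe sets, the brightest on average was used.

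Samples were grouped by genotype and medium as labelled. limma 3.58.1 (R 4.3.3) fitted the 4 group means to all arrays without covariates, with 8 residual degrees of freedom per probe set before moderation. Adjusted p values are Benjamini-Hochberg over all probe sets, and errors are the SE and 95% interval of that fit. The 5 contrasts were alkali against control in each genotype, their difference, and K83 against Jijing88 in each medium. The fit was tested on simulated data. The 3 arrays per group limit the precision, and no batch is given in the labels.

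Members called in any contrast, HAK10, AKT1 and the member with the smallest p of a family without calls (HKT1;5) are named with values. So are, for each neighbouring list and each comparison, up to 3 called genes with the smallest adjusted p. CBL4, CIPK24 and the probe set disagreements given are named beyond that rule, after their values were seen. One gene that matched the proton pump pattern through the synonym of a photosystem gene was left out. The members and lists were chosen with earlier results of these data known. Alternatives were median centring, quantile normalization, no dim probe sets, the mean of a gene's probe sets, a trended robust prior, array weights, the replicate number as a block, only the groups compared, and leaving out each array.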

Additional observations from a re-analysis of the deposited data

How the results depend on the processing

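Of the 27 called differences of the transport genes named with values, 15 stayed past the threshold under every alternative, 12 were lost under at least 1 and 0 reversed. Of the 48 uncalled ones, 10 were called under at least 1. The calls kept throughout were the alkali rise of HAK10 in both genotypes, of AKT1 in K83 and of HAK23 and CAX1b in Jijing88, the fall of CAX1a in Jijing88, and the genotype differences of HAK1 and AKT1 (both media), HAK16 and HAK27 (control medium) and HAK23, HAK25 and CAX1a (alkali). Leaving out each array gave 5 to 6 called transport genes for alkali in Jijing88, 2 to 8 for alkali in K83, 0 to 0 for the difference of the effects, 4 to 6 for the genotypes in control medium and 5 to 9 under alkali. Fewer arrays also give a weaker test. The difference of the effects had 1 call, AKT1, under quantile normalization (0.68), without dim probe sets (0.61), with the trended robust prior (0.61) and with array weights (0.56). The labels do not say what a replicate number shares across groups, so the arrays were not paired in the main fit. Of 18 same-numbered pairs, 7 deviated together at a correlation over 0.1, in a range from -0.08 to 0.22. Pairs of unlike number were not set beside them, so these correlations do not decide whether the numbers share a factor. With the replicate block, the counts were 6, 7, 0, 7 and 8 in the same order. HKT1;5 has no value without dim probe sets. For the 31 CBL and CIPK genes, where the alternatives were added after seeing the data, the counts ran from 8 to 12, 7 to 12, 0 to 2, 5 to 10 and 5 to 10. Calcium ATPase, chloride carrier, other channel and marker genes were not recomputed, and where they had other probe sets these were not read. Dim probe sets, such as those of HAK4, HAK20, HAK26 and HKT1;5, limit what can be read from them.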
